A study of Mus musculus with 16 samples.

Results

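DNA-replicating crypt cells are described here as 250 single cells of mouse small intestine that carried the most transcripts of DNA replication genes. Unique molecular identifiers (UMIs, tags that count each captured RNA molecule once) were counted per gene and cell. Among the 1961 cells with at least 900 UMIs, of 2597 in all, an S score was taken as the UMIs of Mcm2, Mcm3, Mcm4, Mcm5, Mcm6, Mcm7, Pcna, Tyms, Rrm2, Gins2, Prim1 and Dut over the cell's total, and an M score as those of Top2a, Mki67, Cdk1, Ccnb1, Ccnb2, Cdc20, Ube2c, Birc5, Cenpa, Kif23 and Pbk. The 250 highest S scores among the 806 cells whose S score exceeded the M score gave 129 WT and 121 ROBO cells. Because RNA levels chose the cells, the levels of these 23 genes are given as descriptions, and every other gene compared between the DNA-replicating cells and the rest comes from the RNA of the same cells and is a description too.

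The cells came from crypt-enriched epithelium of the proximal part of the small intestine at postnatal day 16, with 8 deposited samples per genotype. The paper names WT littermates as controls of ROBO mice at this age for its gross examination. ROBO mice carried 1 copy each of Villin-Cre and of the ROBO Crainbow transgene in the Rosa locus, in which the CAG promoter drives a fluorescent protein together with human RSPO3 or with 1 of 2 PTPRK:RSPO3 fusions of different length. The Villin promoter limits Cre, and so the transgene, to intestinal epithelium from fetal life on, and each recombined cell expresses 1 of these Wnt agonists. Transcripts of the transgene were not analysed here. Mice were of an outbred background. Each genotype was deposited as 1 pooled matrix whose cell names give no sample, so the 2 genotypes are 1 pooled sample each. No test between them is possible, and the 95% intervals below cover counting error only.

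Before a cell divides it copies its genome once in S phase. Origins are licensed in G1 when ORC, CDC6 and CDT1 load the MCM2 to MCM7 helicase, kinases then recruit CDC45 and the GINS complex to fire them, and polymerases copy both strands behind the fork with the PCNA sliding clamp, while ribonucleotide reductase, thymidylate synthase and dUTPase keep the nucleotide pools supplied. In the intestinal crypt, Wnt signals hold stem cells and their transit-amplifying daughters in cycle, and cells leave the cycle as they differentiate and move onto the villus. R-spondins amplify Wnt signals by removing the ubiquitin ligases that clear Wnt receptors.

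Total counts were 2682127 UMIs in WT and 2428435 in ROBO, with 463 to 13756 UMIs per cell. The DNA-replicating cells held 644339 UMIs, with a median of 2314 per cell (2374 in WT and 2272 in ROBO) and of 1350.5 genes detected. They were compared with the 1711 other cells that had at least 900 UMIs (median 1949 UMIs) and with 3 sets of cells within those. M-high cells were the 250 cells with the highest M score among cells whose M score exceeded the S score (median 2175 UMIs). Quiet crypt cells were 215 cells with no UMI of either score after thinning each cell to 900 UMIs and with few markers of differentiated or non-epithelial cells (median 1974 UMIs). Villus cells were the 250 cells with the largest share of mature enterocyte markers (median 1538 UMIs). They were taken to give the level of free RNA for genes that such cells should lack.

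The S score ran from 84.0 UMIs per 10000 in the highest DNA-replicating cell to 28.4 in the last one, with a median of 38.4. The last cell taken had 13 score UMIs of 4583, and the first cell left out had 5 of 1768, a score of 28.3. Over the 10 places inside the limit the score ran from 28.7 downwards, and over the 10 outside it down to 27.3, so no gap separated the chosen cells from the next. The 250 cells had a median of 9 score UMIs, from 3 to 40. At least 3 of the 12 score genes were detected in 235 of them (94.0%), against 342 of 1711 other cells (19.99%), 106 M-high cells and 3 villus cells. In the remaining 15 only 1 or 2 score genes carried the score.

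**Figure D1:**
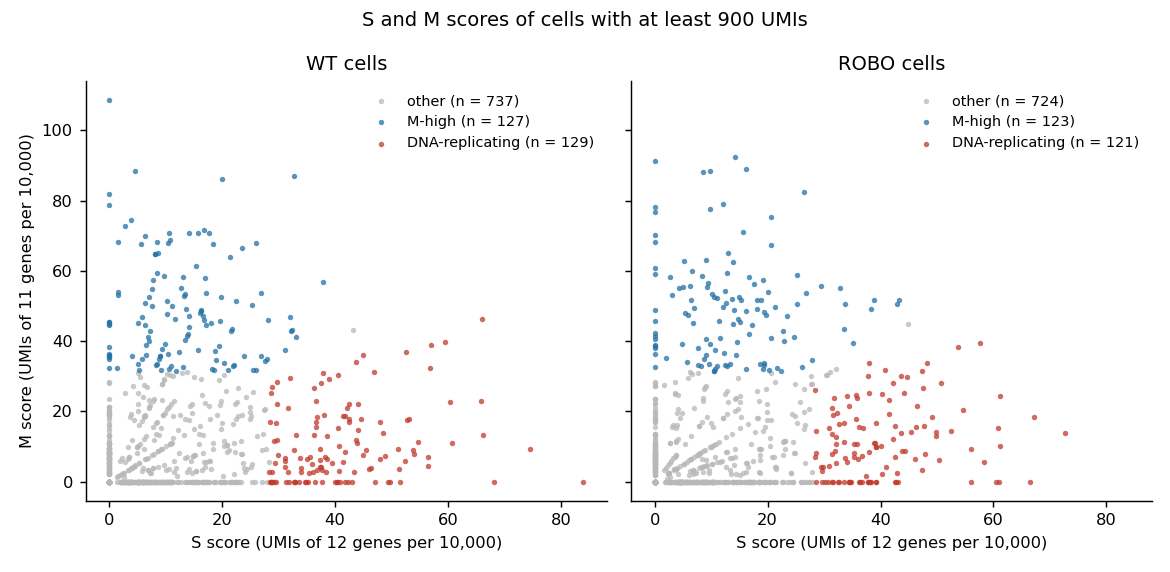
Each point is 1 cell with at least 900 UMIs, placed by its S score (horizontal axis, UMIs of the 12 S genes per 10000 UMIs) and its M score (vertical axis, UMIs of the 11 M genes per 10000), with WT cells on the left and ROBO cells on the right. The red DNA-replicating cells (129 WT, 121 ROBO) start at a score of 28.4 and run without a gap from the grey other cells, and 24.0% of them in WT and 24.8% in ROBO lie on the line of no M UMI.

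The helicase genes of the score were at like levels in both genotypes. Mcm6 was at 7.89 UMIs per 10000 in WT and 6.89 in ROBO DNA-replicating cells, against 1.27 and 1.38 in the other cells of each genotype. Mcm5 was at 3.56 and 3.74, against 0.679 and 0.534, and Mcm2 at 3.24 and 3.28, against 0.545 and 0.601. The other helicase genes of the score, Mcm3, Mcm4 and Mcm7, lay between 2.72 and 3.48 in both genotypes. In each case the WT and ROBO DNA-replicating cells were close to each other and far above the other cells. The same score limit was applied to both genotypes. It favours high levels of these genes in both and holds the summed score genes close, at 40.8 per 10000 in WT and 40.9 in ROBO. The closeness of the helicase genes is therefore in part an outcome of the choice and is no evidence that the genotypes are alike. The level of a single gene is not fixed by the choice. Pcna, the sliding clamp, was at 4.03 and 4.27 per 10000, and Dut, the dUTPase that keeps uracil out of DNA, at 5.39 and 5.51. Tyms, thymidylate synthase, was at 2.18 in WT and 3.12 in ROBO, and Prim1, the catalytic primase subunit, at 1.24 and 1.74. Rrm2, the S-phase subunit of ribonucleotide reductase, was at 1.88 and 1.74, and Gins2 of the GINS complex at 1.44 in both.

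Shares of cells with a UMI followed the same order. After thinning each cell to 900 UMIs, a Mcm6 UMI was seen in 46.4% of DNA-replicating cells, 13.6% of M-high cells and 2% of villus cells, and without thinning in 76.8%, 27.6% and 5.2%. For Dut the thinned shares were 36.4%, 14% and 1.2%, and for Pcna 26%, 11.6% and 4%. Each of the 12 genes was above the villus level in the DNA-replicating cells, which the choice of cells by these genes favours. That level was taken to stand for free RNA, which was not measured. Mcm6 gave 18.2% of all score UMIs, Dut 13.3% and Pcna 10.1%, and no other gene over 8.93%. Leaving 1 gene out of the score kept 213 of the 250 cells for Mcm6 and 224 to 239 for the others.

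**Figure D2:**
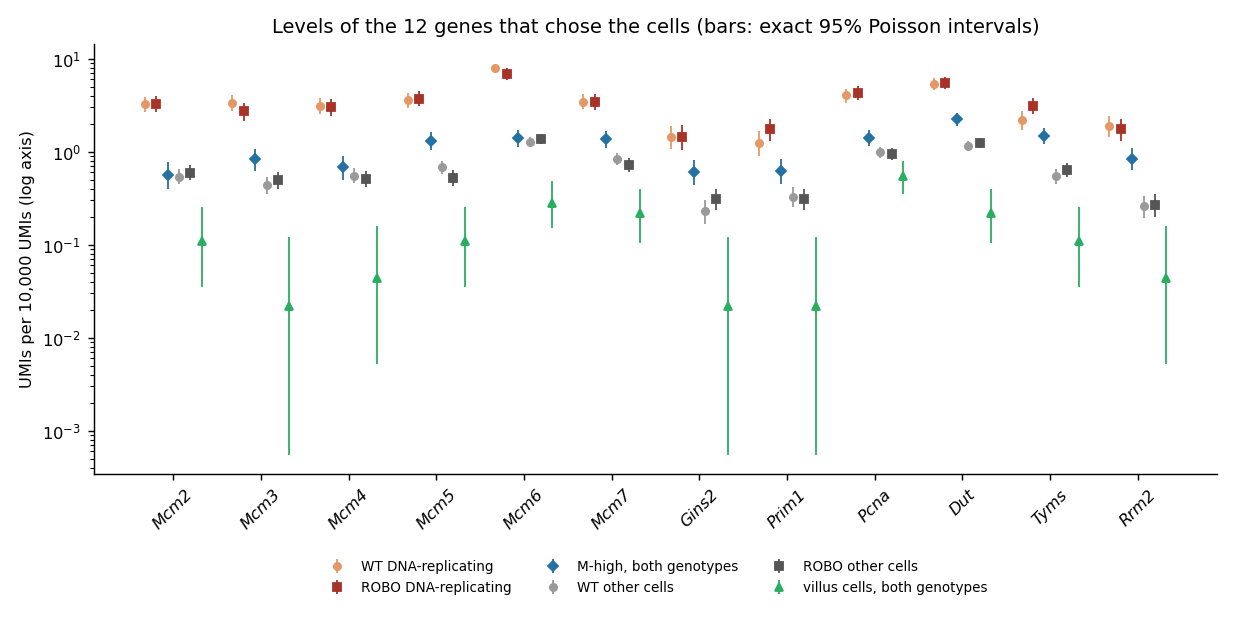
The level of each of the 12 S score genes is plotted in UMIs per 10000 UMIs on a log axis, for WT and ROBO DNA-replicating cells, M-high cells, WT and ROBO other cells and villus cells, with bars for the exact Poisson 95% counting interval. For Mcm6 the WT and ROBO DNA-replicating cells sit at 7.89 and 6.89, M-high cells at 1.39 and villus cells at 0.283, and the genotypes lie farther apart for Tyms (2.18 and 3.12) and Prim1 (1.24 and 1.74).

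The promoter sequences below show 2 kinds of motif that were found at unequal rates around the annotated starts of replication and of mitotic genes, although most replication genes carried neither. RefSeq windows of 300 bases (250 before and 50 after each annotated start, GRCm38.p6) were searched on both strands for the E2F-type motifs TTTGGCGC, TTTCCCGC, TTTCGCGC and TTTGCCGC, the sites that E2F factors bind at S-phase genes, and for TTTGAA, the cell cycle homology region bound at mitotic genes. These motifs can overlap one another on opposite strands. An E2F-type motif lay in 2.26% of all 32851 windows, in 4 of 11 windows (36.4%) of the 10 S score genes with a window, in 21 of 91 (23.1%) for the 75 matched of 86 replication genes outside the score, in 1 of 36 (2.78%) for G2 and M genes outside the score and in 1 of 10 for the M score genes. TTTGAA lay in 17.9% of all windows, in 24 of 36 (66.7%) for those G2 and M genes and in 8 of 10 for the M score genes, against 15 of 91 (16.5%) for the replication genes outside the score and 1 of 11 for the S score genes. These rates are for whole windows and not for the upstream part alone. For many of those G2 and M genes, among them Aurka, Plk1 and Cenpf, TTTGAA was not in the 250 bases before the start. There it lay only at or after the start. A match is a description of letters and was not tested as a binding site. The first 3 sequences are upstream stretches of replication genes with the E2F-type motif in capitals. They lie next to the annotated start and outside other annotated genes, and are written 5′ to 3′ on the gene's strand: Mcm6, chr1:128359706-128359955 on the minus strand, with 3 matches of which 2 overlap, Mcm5, chr8:75109259-75109467 on the plus strand, with 2 overlapping matches, and Rfc3, a clamp loader subunit, chr5:151651209-151651458 on the minus strand.
Mcm6: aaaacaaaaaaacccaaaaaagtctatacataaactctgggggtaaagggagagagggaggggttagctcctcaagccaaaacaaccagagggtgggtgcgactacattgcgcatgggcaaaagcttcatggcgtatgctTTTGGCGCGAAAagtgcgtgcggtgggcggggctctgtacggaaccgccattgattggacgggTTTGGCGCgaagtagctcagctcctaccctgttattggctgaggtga
Mcm5: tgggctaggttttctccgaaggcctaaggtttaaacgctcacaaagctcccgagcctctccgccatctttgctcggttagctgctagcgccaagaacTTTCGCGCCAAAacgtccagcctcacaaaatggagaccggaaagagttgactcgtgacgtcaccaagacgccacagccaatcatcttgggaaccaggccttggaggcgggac
Rfc3: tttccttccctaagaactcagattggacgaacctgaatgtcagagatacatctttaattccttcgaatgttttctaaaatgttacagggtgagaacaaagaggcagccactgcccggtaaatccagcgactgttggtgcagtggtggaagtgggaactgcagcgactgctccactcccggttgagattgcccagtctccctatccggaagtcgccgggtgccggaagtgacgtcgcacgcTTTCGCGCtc

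For contrast, the next 3 are upstream stretches of mitotic genes with TTTGAA, or TTCAAA where it lies on the opposite strand, in capitals: Ube2c, which builds ubiquitin chains for the anaphase-promoting complex, chr2:164769679-164769928 on the plus strand, Cdc20, an activator of that complex, chr4:118437344-118437593 on the minus strand, and Kif11, the kinesin that pushes spindle poles apart, chr19:37376132-37376381 on the plus strand.
Ube2c: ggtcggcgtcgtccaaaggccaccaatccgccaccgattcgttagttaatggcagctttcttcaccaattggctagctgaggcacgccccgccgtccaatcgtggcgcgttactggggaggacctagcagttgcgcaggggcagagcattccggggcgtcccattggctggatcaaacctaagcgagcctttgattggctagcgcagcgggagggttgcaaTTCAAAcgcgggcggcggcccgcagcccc
Cdc20: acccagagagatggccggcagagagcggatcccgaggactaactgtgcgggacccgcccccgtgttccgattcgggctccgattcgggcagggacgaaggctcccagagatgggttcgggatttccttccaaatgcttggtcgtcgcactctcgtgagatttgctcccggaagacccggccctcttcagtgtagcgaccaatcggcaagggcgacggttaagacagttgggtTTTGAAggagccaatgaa
Kif11: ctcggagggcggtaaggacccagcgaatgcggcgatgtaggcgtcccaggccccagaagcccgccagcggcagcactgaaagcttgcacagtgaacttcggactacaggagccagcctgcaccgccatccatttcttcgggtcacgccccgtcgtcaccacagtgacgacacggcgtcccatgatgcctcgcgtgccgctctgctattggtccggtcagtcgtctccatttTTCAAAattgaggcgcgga

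Replication genes that the score did not use were also high in these cells. The 86 such genes (licensing and firing factors, polymerases, clamp and lagging-strand enzymes, nucleotide synthesis, chromatin copying) summed to 120.1 UMIs per 10000 in WT and 112 in ROBO DNA-replicating cells, against 47.8 and 47.2 in the other cells of each genotype. Per cell the median was 111 (quartiles 89.9 and 137) in DNA-replicating cells, 71.8 in M-high, 37.8 in quiet crypt and 11.5 in villus cells. Over the other cells, the sum was 2.44-fold higher, a log2 ratio of 1.29 (1.25 to 1.33). Of 7132 genes with at least 100 UMIs over both sides, 15.2% were higher by more than 1.5-fold and 15.9% lower, and the median log2 ratio was 0.06. Of the 71 replication genes that had those UMIs, 65 were higher and 1 lower by more than 1.5-fold, with a median of 1.35. These counts rest on the cells that the score chose. The 15.2% and 15.9% of all genes stand beside every count over other cells below.

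Most licensing factors were higher than in other cells. Cdt1, which with ORC and CDC6 loads the MCM helicase, was at 2.53 per 10000 in WT and 2.13 in ROBO DNA-replicating cells, 0.741 in M-high and 0.196 in villus cells. Gmnn, the geminin that binds CDT1 and blocks a second round of licensing, was at 1.88 and 1.74, against 0.800 in M-high cells. Both were high in both genotypes and low elsewhere, with log2 ratios over other cells of 1.70 for Cdt1 and 1.74 for Gmnn. Orc6, the smallest ORC subunit, was at 1.06 and 1.38, against 0.474 in M-high cells. Of 10 licensing genes 7 had the UMIs to be compared with other cells, and 5 of these were higher by more than 1.5-fold, while the ORC subunits Orc4 and Orc5 were within it at log2 ratios of 0.36 each.

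All 9 measured origin firing and fork factors of 16 were higher than in other cells, with a summed log2 ratio of 1.66 (1.52 to 1.79). Topbp1, which helps bring CDC45 to origins and activates ATR, was at 2.65 in WT and 2.49 in ROBO, against 1.14 in M-high cells. Cdc45, the helicase partner of MCM and GINS, was at 0.530 and 0.820, against 0.341. Both were high in both genotypes. The fork protection partners Tipin and Timeless had log2 ratios over other cells of 1.57 and 1.61, and Wdhd1, which ties polymerase alpha to the helicase, 1.79.

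Among polymerase genes, 7 of 8 measured were higher than in other cells. Pola1, the catalytic subunit of polymerase alpha, was at 0.795 in WT and 0.755 in ROBO, and Pole, of the leading-strand polymerase, at 0.825 and 0.722, and neither had a UMI in villus cells. Their log2 ratios over other cells were 2.08 and 2.13. Pole3, a small polymerase epsilon subunit also found in chromatin remodelling complexes, was within 1.5-fold at 0.29.

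Clamp loading and lagging-strand genes were higher in 15 of 16 measured. Lig1, the ligase that seals Okazaki fragments, was at 3.50 per 10000 in WT and 2.17 in ROBO DNA-replicating cells, 0.711 in M-high and 0.0436 in villus cells, and its log2 ratio over other cells was 2.35 (2.06 to 2.63). Fen1, the flap nuclease that trims those fragments, was at 1.94 and 2.2, against 1.2 in M-high cells. Rfc3, whose upstream sequence is printed above, was at 1.71 and 1.25, against 0.504 in M-high cells. The single-stranded DNA binding subunits Rpa1 and Rpa2 had log2 ratios over other cells of 1.71 and 1.85. Top1, a topoisomerase that also serves transcription, was not among the higher genes, with 0.913 and 0.886 in DNA-replicating cells against 1.04 and 1.00 in other WT and ROBO cells.

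Nucleotide synthesis genes were higher in 15 of 17, with a summed log2 ratio of 1.13 (1.06 to 1.2). Rrm1, the large subunit of ribonucleotide reductase, was at 3.27 per 10000 in WT and 2.69 in ROBO, against 2.62 in M-high cells, and Tk1, thymidine kinase, at 2.30 and 2.46, against 2.01. So Rrm1 and Tk1 were high over other cells (log2 1.48 and 1.47) and near the M-high level (0.19 and 0.24, intervals including 0). Samhd1, which breaks down deoxynucleotides, was the 1 replication gene on the low side, at 0.236 and 0.328 per 10000 against 0.454 and 0.633 in other WT and ROBO cells.

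Genes that copy chromatin behind the fork were higher in 14 of 14 measured. Dnmt1, the methyltransferase that copies DNA methylation, was at 3.00 in WT and 2.66 in ROBO, against 1.32 in M-high cells, and Uhrf1, its guide to hemimethylated sites, at 2.71 and 2.33, against 1.07. Nasp, a histone chaperone, was at 3.59 and 3.18, against 1.59, and Hells, a remodeller needed for DNA methylation, at 1.41 and 1.48, against 0.326. Each of these was above the M-high level in both genotypes, with log2 ratios over M-high cells of 1.11, 1.25, 1.10 and 2.15.

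Checkpoint and repair genes were higher in 10 of 12 measured of 25, with a summed log2 ratio of 1.5 (1.39 to 1.61). Ung, the glycosylase that removes uracil from DNA, was at 1.35 per 10000 in WT and 1.48 in ROBO, against 0.207 in M-high and 0.0654 in villus cells, a log2 ratio over other cells of 2.59 (2.16 to 3.03). Atad2, a chromatin factor that works with E2F and MYC, was at 1.71 and 2.36, against 0.904 in M-high cells. Both were high in both genotypes.

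Histone genes did not follow the replication genes. Over 17 histone genes the summed log2 ratio over other cells was 0.32 (0.25 to 0.39). By more than 1.5-fold 2 of 7 measured genes were higher and 1 lower, against 15.2% and 15.9% of all genes. Of the replication-dependent histones, Hist1h1a, Hist1h1b and Hist1h2ae had 5 UMIs each in the 250 cells and 17, 21 and 14 in the other cells. Such transcripts end in a stem-loop without a poly(A) tail, and the kit primes on poly(A), and the part of this in their low counts was not tested. Hist1h2bc, on the low side, was at 0.736 in WT and 1.25 in ROBO, against 1.92 and 2.43 in other cells. The polyadenylated variant H2afz was at 3.09 and 3.38, above other cells (log2 0.68) and below M-high cells (log2 -0.52).

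Among regulators of S-phase entry, 10 of 19 measured genes of 24 were higher than in other cells and none lower. Ccnd2, a cyclin that starts G1, was at 5.60 per 10000 in WT and 5.94 in ROBO, and its kinase Cdk4 at 4.83 and 4.79, against 3.41 and 2.65 in other WT cells. E2f8, a repressor of the E2F family, was at 1.18 and 1.15, above other cells (log2 1.39) and near the M-high level of 1.21. Ccna2, the cyclin of S and G2, was at 1.77 and 2.26, above other cells (log2 0.82) and below M-high cells (log2 -1.05). Inhibitors lay the other way, with 4 of 9 measured lower, none higher and a summed log2 ratio of -0.71 (-0.87 to -0.55). Cdkn1a, the p21 inhibitor of cyclin-dependent kinases, was at 0.942 in WT and 0.492 in ROBO, against 2.23 and 1.81 in other cells and 2.88 in villus cells. Cdkn1c and Ccng2 were lower too, with 9 and 15 UMIs in the 250 cells and 271 and 270 in the others. Cdkn2b had 3 UMIs against 190, a log2 ratio of -3.34 (-5.63 to -1.77).

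**Figure D3:**
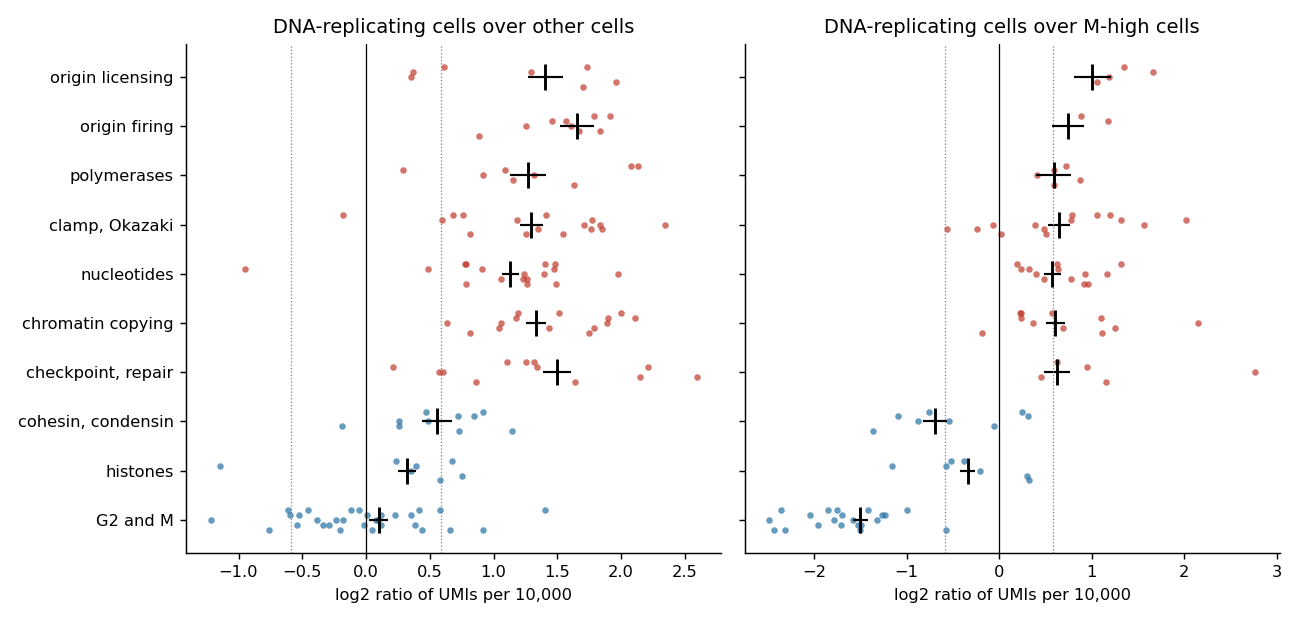
Each point is 1 gene outside the score with at least 100 UMIs over both sides, grouped by role, and the horizontal axis is the log2 ratio of its UMIs per 10000 in DNA-replicating cells over other cells (left) and over M-high cells (right). Black crosses mark the log2 ratio of the summed list with its 95% interval and dotted lines 1.5-fold. The replication roles lie right of 0 in both panels, while G2 and M genes lie around 0 over other cells (0.10) and left of 0 over M-high cells (-1.50).

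M-high cells were the most like set, and the comparison with them describes how replication genes differed between these sets of cycling cells. The sets were chosen by opposite scores on the same RNA. That choice favours higher replication genes in the DNA-replicating cells and higher G2 and M genes in M-high cells. Of 2938 genes with the UMIs for it, 4.22% were higher by more than 1.5-fold and 6.54% lower, with a median log2 ratio of -0.04. Of the 49 measured replication genes outside the score, 30 were higher and none lower, with a median of 0.72, and their sum was at 116 against 74.4 per 10000, a log2 ratio of 0.64 (0.59 to 0.69). Taken within each genotype, where the M-high cells stood at 68.7 and 81.0 per 10000, the WT ratio was 0.81 (0.73 to 0.88) and the ROBO ratio 0.46 (0.39 to 0.54). By role the summed log2 ratio was 1.01 for licensing, 0.74 for firing, 0.64 for clamp and lagging strand, 0.61 for chromatin copying, 0.59 for polymerases and 0.57 for nucleotide synthesis. Licensing had the highest ratio, and its interval (0.81 to 1.21) lay above that of nucleotide synthesis (0.48 to 0.66) and overlapped that of firing (0.57 to 0.92). With an S score without the Mcm genes the ratio of the summed replication genes was 0.32 (0.27 to 0.38). Roles were not compared in that setting. The 10 genes highest over M-high cells held Ung (2.77), Hells (2.15) and Lig1 (2.01). The other 7 were the K cell hormone Gip, the goblet and Paneth lectin Itln1, lysozyme Lyz1 and the Paneth defensin genes Defa24, Defa17, AY761184 and Gm15284, which had from 87 of 253 (Gm15284) to 180 of 190 UMIs (Gip) in a single cell. Without the highest cell on each side, Lyz1 was at 0.02 and AY761184 at 0.42. Defa24 was at 1.85, but 52 of its 135 UMIs left in DNA-replicating cells were in a single ROBO cell. The genes lowest over M-high cells held the spindle and kinetochore genes Nusap1 (-2.48), Plk1 (-2.44), Cenpf (-2.36) and Anln (-2.05), the goblet genes Muc2, Fcgbp and Agr2, and Arl6ip1, Sapcd2 and C330027C09Rik.

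The G2 and M genes that the M score did not use summed to 24.6 per 10000 in WT and 27.3 in ROBO DNA-replicating cells, 73.4 in M-high, 9.35 in quiet crypt and 24.2 in all other cells. Of 21 measured against M-high cells 20 were lower by more than 1.5-fold and none higher. Against other cells, which include the M-high cells, 3 of 31 were higher and 4 lower, no more than the 15.2% and 15.9% of all genes. The summed log2 ratio was 0.10 (0.02 to 0.18). Tuba1b, a tubulin, was at 4.21 and 5.09, above other cells (log2 0.92) and below M-high cells (-0.58). Quiet crypt cells gave another reference, against which 13.1% of 2409 genes were higher and 10.9% lower, with 30 of 37 measured replication genes outside the score and 5 of 6 G2 and M genes higher. Quiet crypt cells were chosen for having no UMI of either score after thinning, which favours this direction for both lists. Cohesin and condensin genes, which hold and fold the copied chromosomes, lay between, with a log2 ratio of 0.56 (0.44 to 0.68) over other cells and -0.69 (-0.83 to -0.56) over M-high cells. Within that list the cohesin ring genes Smc1a and Smc3 were at 0.25 and 0.31 over M-high cells, and the condensin genes Smc2 and Smc4 at -1.36 and -0.76.

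The DNA-replicating cells varied among themselves in how far G2 and M genes accompanied the score. After thinning to 900 UMIs, 109 of them had no M score UMI and 141 had at least 1 (median 2231 and 2372 UMIs before thinning). Of 1200 genes with the UMIs for this comparison, 2.92% were higher and 4.08% lower in those without. Cdca3, which is needed for mitotic entry, was at 0.522 against 2.39 per 10000, Ccna2 at 0.932 against 2.76, and the chromatin protein Hmgb2 at 1.08 against 2.60. These were lower in the cells without an M UMI, with log2 ratios of -2.20, -1.57 and -1.27. Of the 12 S score genes themselves, Rrm2 (1.01 against 2.39) and Tyms (1.57 against 3.38) were lower in those cells, while Mcm6 was at 8.54 against 6.62, a log2 ratio of 0.37 (0.10 to 0.63). The 86 replication genes outside the score stood at 106 and 123 per 10000. The split used genes of the M score, so it is a description of the cells and not a test.

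Ordered by S score, the 84 highest cells (scores of 42.6 and above) had 126 UMIs per 10000 (122 to 131) in replication genes outside the score, the next 83 cells 116 (111 to 120.4) and the last 83 cells 105 (101 to 109.8). So the genes left out of the score followed it within the chosen cells too. Median depth did not, at 2322, 2371 and 2272 UMIs. Over the 250 cells Spearman's rho was 0.307 between the score and the share of those genes and -0.0065 between the score and total UMIs. Over all 1961 cells it was 0.685 and 0.211. These are descriptions across cells that share libraries and, within each cell, the same total.

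Taken as a sum, stem cell markers were present in the DNA-replicating cells at or above the level of other crypt cells. The 19 listed markers summed to 29.7 per 10000 in WT and 33.7 in ROBO DNA-replicating cells, 27.3 in M-high, 23.2 in quiet crypt and 5.03 in villus cells. Slc12a2, an ion transporter raised in crypt base cells, was at 8.66 in WT and 11.9 in ROBO, against 8.31 in M-high and 0.850 in villus cells. Lgr5, the R-spondin receptor that marks crypt base stem cells, was at 1.03 and 0.984, against 0.933 in M-high and 0.0436 in villus cells. A Lgr5 UMI was found in 24 of 129 WT (18.6%) and 19 of 121 ROBO DNA-replicating cells (15.7%). After thinning it was 8% of both together, 6.8% of M-high and 0% of villus cells. Over all other cells, 7 of 15 measured stem markers were higher by more than 1.5-fold and none lower, against 15.2% and 15.9% of all genes. The summed log2 ratio was 0.70 (0.63 to 0.77). Sfrp5, a secreted Wnt inhibitor, was at 2.18 and Smoc2, a matrix protein of crypt base cells, at 1.24. Cdca7, itself an E2F and MYC target, was at 1.09. Over M-high cells the summed log2 ratio was 0.21 (0.12 to 0.30) and over quiet crypt cells 0.45 (0.34 to 0.55). Single markers differed, and Slc12a2 gave 364 of the 1027 stem UMIs in ROBO DNA-replicating cells. Over ROBO quiet crypt cells, the markers with at least 100 UMIs were Slc12a2 at 0.65 (0.39 to 0.93) and Axin2 at -0.05 (-0.50 to 0.41). The others were Igfbp4 at -0.10 (-0.62 to 0.42) and Sox9 at -0.40 (-0.96 to 0.16). Wnt target genes were at 18.5 in WT and 17.2 in ROBO against 16.8 in M-high cells, a log2 ratio of 0.09 (-0.03 to 0.21) that includes 0.

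Markers of mature enterocytes were low, while those of bottom enterocytes were near the level of other cells. Mature enterocyte markers summed to 9.28 per 10000 in WT and 11.02 in ROBO DNA-replicating cells, 16.7 in M-high, 30.1 in quiet crypt and 247 in all other cells. All 12 measured were lower than in other cells by more than 1.5-fold, with a summed log2 ratio of -4.61 (-4.73 to -4.50). Apoa4, an apolipoprotein of chylomicrons, was at 4.54 and 6.40, and Lct, the lactase of suckling animals, at 0.236 and 0.394, against 193 and 12.3 in other cells. Cubn, the cubilin receptor, had no UMI in the 250 cells, and was at least 40.1-fold lower than in other cells when set against 3 counts. The rest of the 10 genes lowest over other cells were Ace (1 UMI against 1125, log2 -7.49, -12.8 to -5.01), Rbp2, Bst1 and Ifit1bl2 with 1 UMI each, Gda with 3, Gpx3 with 10 and Apoa1 with 112 UMIs against 32304. Bottom enterocyte markers were at 52.7 in WT and 61.9 in ROBO against 60.04 in other cells. Dmbt1, a secreted scavenger protein among them, was at 23.9 and 32.9.

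Secretory markers were scarce and unevenly spread. Goblet markers were lower than in other cells in 9 of 9 (10.97 against 55.8 per 10000) and lower than in M-high cells (33.1) in 6 of 6. Per cell the medians were closer, at 2.62 in DNA-replicating, 3.72 in M-high and 4.50 in other cells. Single cells reached 734, 1002 and 5192 per 10000 in these sets, so the gaps in the sums rest in part on few cells. Paneth markers were at 13.2 in WT and 14.8 in ROBO, but 1 ROBO cell held 318 of the 898 UMIs and 1 WT cell 275. Without both cells the levels were 5.08 and 4.39, and the log2 ratio over M-high cells went from 2.04 to 0.49. Of the 198 WT and 7 ROBO enteroendocrine UMIs 183 were in 1 WT cell. Tuft markers had 9 UMIs in all. Secretory progenitor genes stood at 2.44 in WT and 2.66 in ROBO, against 3.13 in M-high cells, and Neurog3, which starts the enteroendocrine fate, had no UMI.

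**Figure D4:**
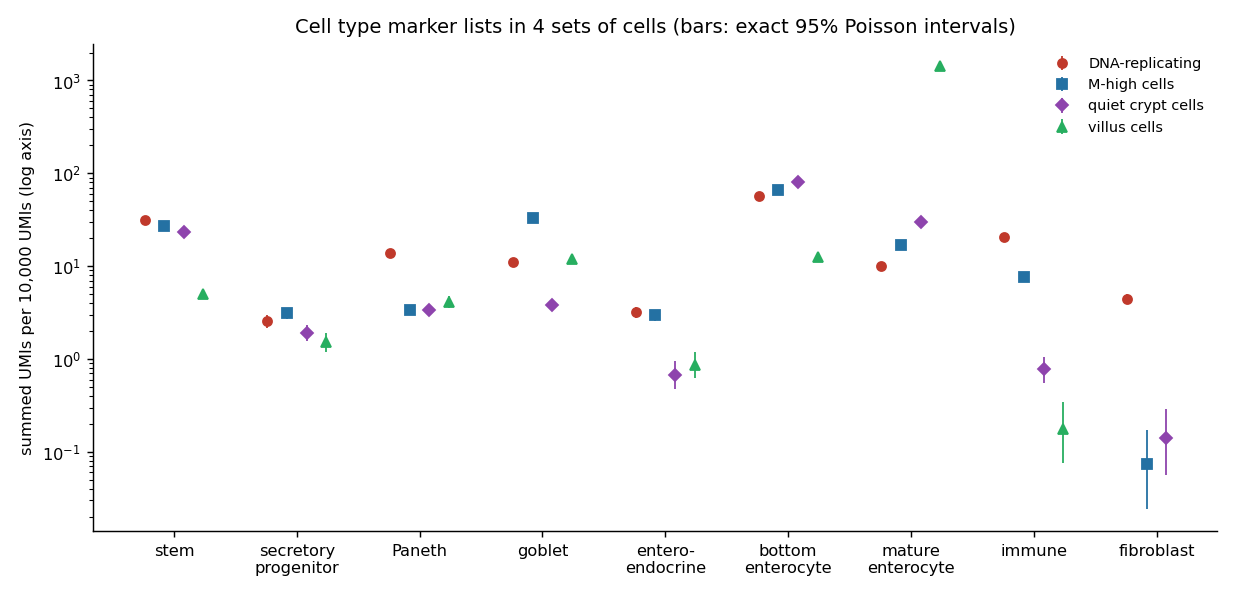
Summed UMIs per 10000 of each cell type marker list are plotted on a log axis in DNA-replicating, M-high, quiet crypt and villus cells, with exact 95% Poisson intervals. Stem markers are near 30 in DNA-replicating cells (31.6) and at 5.03 in villus cells, mature enterocyte markers are the reverse (10.1 in DNA-replicating cells), and the immune (20.6) and fibroblast (4.44) levels of DNA-replicating cells come mostly from 9 and 2 cells. Villus cells had no fibroblast marker UMI and have no point there.

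Markers of other cell types were found in 11 of the 250 cells. At least 3 immune markers were detected in 9 of them (5 WT and 4 ROBO) and at least 3 fibroblast markers in 2, both ROBO, against 34 and 7 such cells among all 1961. The 9 cells with immune markers had 527 immune UMIs per 10000, led by Gzma and Ccl5 of cytotoxic lymphocytes, which were detected in 6 cells each, with 3.98 of the epithelial keratin Krt19 against 24.1 in the remaining 239. Their replication genes outside the score were at 132 per 10000, above the 116 of the remaining 239. Cd8a, which was 1 of the 10 genes highest over other cells (log2 2.64), was detected in 7 cells. The 2 cells with fibroblast markers had 657 fibroblast UMIs per 10000 and 31.4 in replication genes outside the score, 13 UMIs in all, against the 47.5 of other cells. They also had Krt19 at 33.8. So the immune cells were DNA-replicating by genes outside the score but were not crypt epithelium by their keratin. In the 2 with fibroblast markers only the score genes were seen to be high, and 13 UMIs are too few to set them below other cells. Rarres2, the gene highest over other cells (log2 3.42), was detected only in these 2. The rest of the top 10 were Wdr76, Ung, Tcf19, Lig1, Dtl, Ncapg2, Atad2 and Sfrp5, with log2 ratios of 2.88 down to 2.18, each detected in at least 40 of the 250 cells. Dtl is part of the ubiquitin ligase that destroys CDT1 in S phase. Left out, the 11 cells changed the summed log2 ratio of replication genes over other cells by less than 0.01, and that of stem markers from 0.70 to 0.75.

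The genotype comparison described, for each genotype, the share of captured cells that were DNA-replicating and the RNA of those cells. Crypts were enriched before capture and the 250 cells were taken over both genotypes together. The number of such cells in the tissue was therefore not measured. DNA-replicating cells were 129 of 993 WT cells with at least 900 UMIs (12.99%, Clopper-Pearson 10.96 to 15.2%) and 121 of 968 ROBO cells (12.5%, 10.5 to 14.7%). The difference, ROBO minus WT, was -0.491 percentage points (Newcombe -3.45 to 2.47), an interval that includes 0. Scored after thinning each cell to 900 UMIs, the 250 cells were 144 WT and 106 ROBO and the difference was -3.55 points (-6.50 to -0.597), so its size depended on how depth was treated. It was above 0 in 4 of 11 alternatives, at most 0.937, each of these with an interval that includes 0. Split by depth at 1544 and 2629 UMIs, it was -2.20 points in the shallow, 1.37 in the middle and 0 in the deep cells, each interval including 0. M-high cells were 12.8% in WT and 12.7% in ROBO.

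Within the DNA-replicating cells the genotypes differed little in replication genes. The 12 S score genes summed to 40.8 per 10000 in WT and 40.9 in ROBO, which the choice of cells holds close. For the 86 replication genes outside the score the ROBO over WT log2 ratio was -0.11 (-0.17 to -0.04), or -0.08 (-0.15 to -0.02) without the 11 immune and fibroblast cells. Among other cells it was -0.02 (-0.06 to 0.02). Of 1200 genes with the UMIs for it, 2.83% were higher and 3.92% lower in ROBO by more than 1.5-fold, with a median log2 ratio of 0.02. Of 26 replication genes 24 were within 1.5-fold and 2 were lower, Lig1 (66 UMIs in ROBO and 119 in WT, log2 -0.69) and Nme1, a nucleoside diphosphate kinase (149 and 249 UMIs, -0.59). In the other cells Lig1 was at -0.23 (-0.62 to 0.16) and Nme1 at 0.06 (-0.09 to 0.21). Scored after thinning each cell to 900 UMIs, the summed ratio was 0.01, so its sign depended on that setting.

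Stem markers were slightly higher in ROBO DNA-replicating cells, at 33.7 against 29.7 per 10000 (log2 0.18, 0.05 to 0.31). They were also higher in ROBO among M-high cells, at 28.6 against 26.2, and among quiet crypt cells, at 24.9 against 21.8. With an S score without the Mcm genes the log2 ratio in the DNA-replicating cells was 0.07, with an interval (-0.06 to 0.20) that includes 0. Slc12a2 carried much of it, with 364 UMIs in ROBO and 294 in WT (log2 0.46, 0.24 to 0.69), and no stem marker of 6 measured passed 1.5-fold. Wnt targets did not share the direction in the DNA-replicating cells, at 17.2 in ROBO against 18.5 in WT (log2 -0.10, -0.27 to 0.07). Among quiet crypt cells they were higher in ROBO, at 17.5 (15.8 to 19.3) against 13.1 (11.8 to 14.5). M-high cells stood at 17.2 against 16.5 and other cells at 13.3 against 12.8. Ccnd1, cyclin D1, was at 67 UMIs in ROBO and 116 in WT DNA-replicating cells (log2 -0.64, -1.09 to -0.19). G2 and M genes were at 27.3 in ROBO against 24.6 (log2 0.15, 0.01 to 0.29). In the other cells they lay the other way, at 22.7 in ROBO against 25.5, in M-high cells at 71.6 against 74.9 and in quiet crypt cells at 7.82 against 10.6. The summed ratios in the DNA-replicating cells are small, and with 1 pooled sample per genotype the spread between mice is unknown.

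Of the genes with the largest genotype ratios in the DNA-replicating cells, several rested on single cells. Lyz1, Paneth lysozyme, had 134 UMIs in ROBO and 22 in WT, but 120 were in 1 ROBO cell, and without the highest cell of each genotype its log2 ratio went from 2.76 to -0.21. Gip had 4 and 186 UMIs, 180 of these in 1 WT cell. Itln1 had 68 and 157, with 122 in 1 WT cell. The next genes on the high side were spread over many cells. Prdx2, a peroxiredoxin, had 145 UMIs in ROBO and 87 in WT (log2 0.89, 0.50 to 1.29), Abcd3, a peroxisomal transporter, 65 and 40 (0.86), Plagl2, a zinc finger factor, 73 and 45 (0.85), and Gng12, a G protein subunit, 71 and 46 (0.78). On the low side were Rpl38, a ribosomal protein (127 and 299 UMIs, -1.08), Gm12338 (36 and 126, -1.65) and the goblet gene Spink4 (35 and 122, -1.65, and -1.13 without the highest cells). Goblet markers together were at 6.66 in ROBO and 14.8 in WT (log2 -1.16), or -0.61 without the 2 highest WT cells, which held 86 and 77 UMIs. Rn45s, the ribosomal RNA precursor read as a sign of RNA quality, was at 2.62 per 10000 in ROBO and 5.10 in WT DNA-replicating cells, and ribosomal protein genes took 15.9% and 17.6% of UMIs. With totals that left out Rn45s and ribosomal protein genes the ROBO over WT log2 ratio was -0.14 for replication genes outside the score and 0.15 for stem markers, and with the 196 cells richest in Rn45s left out it was -0.13 and 0.18, so both were about as large. For the single genes this was not tested.

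**Figure D5:**
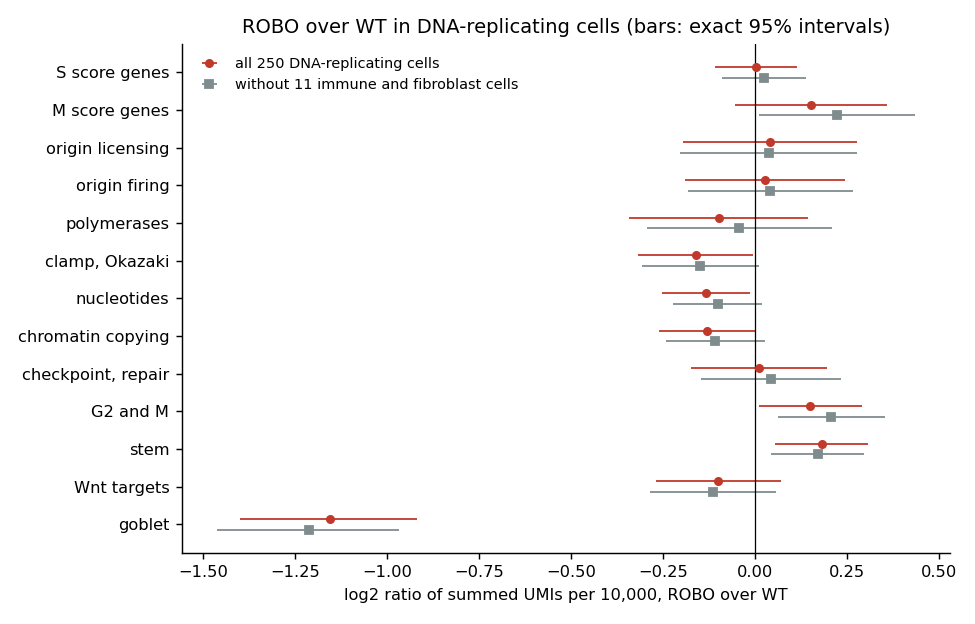
The log2 ratio of summed UMIs per 10000, ROBO over WT, is plotted for gene lists within the 250 DNA-replicating cells (red circles) and without the 11 cells with immune or fibroblast markers (grey squares), with exact 95% intervals for counting error. Most lists lie within 0.2 of 0, among them the S score genes at 0.00 and stem markers at 0.18. The choice of cells holds the S score genes close. Goblet markers at -1.16 rest in part on 2 WT cells.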

How the data were processed

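Small intestinal crypt cells of WT and ROBO mice were captured as single cells in droplets with a 3′ whole transcriptome kit and sequenced, and the authors deposited counts of UMIs per gene and cell, not normalized and made on BaseSpace, as 1 matrix per genotype of 24421 genes. Genome builds mm10 and GRCm38 are named in the submitters' processing notes, while aligner, annotation and cell calling are not given in the sources used here. The labels give 8 samples per genotype on 2 cartridges, and cell names give neither sample nor barcode, so shared barcodes could not be counted. No 2 cells had identical profiles.

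The members and gene lists were chosen with earlier results of these data known. Both matrices were joined, cells under 900 UMIs left out, and the 250 cells taken by the stated scores, ties in file order with WT first. Levels are UMIs per 10000 over summed counts. A ratio has a conditional exact 95% interval, a level an exact Poisson interval and a share a Clopper-Pearson or, for a difference, Newcombe interval, all for counting error only. Genes needed at least 100 UMIs over both sides, and 1.5-fold was the limit. A gene at 0 on one side was set to 3 counts for a lower bound. Text names genes of the lists, the 10 with the largest ratio each way over other and M-high cells, the 5 each way between genotypes, and Rn45s. Quiet crypt cells had at most 90.04 UMIs per 10000 of markers of other lineages, the 90th percentile of the DNA-replicating cells. Doublets were sought with Scrublet at an expected rate of 5%, which marked 6 cells (0.231%), none of them DNA-replicating, too few to count as a working call, so none were removed and doublets remain possible. RefSeq promoter windows were of GRCm38.p6. Alternatives changed the cell and gene minimums, the number of cells, the score, the scaling and the cells compared with. The code was checked on simulated data. Python 3.11.15, numpy 2.4.6, scipy 1.17.1, pandas 2.3.3, scanpy 1.11.5 and matplotlib 3.10.9 were used. Some genes of the lists are not reported here by name.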

Additional observations from a re-analysis of the deposited data

Results flagged for a closer look

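Cells under 900 UMIs were left out of every comparison, and some of them carried the same signal. Of 636 such cells, 64 (10.1%, Clopper-Pearson 7.84 to 12.7%) had an S score above their M score and at least as high as that of the last DNA-replicating cell taken. All 636 cells together held 413 S score UMIs of 447449, a level of 9.23 per 10000. In cells this shallow a few score UMIs reach that limit, and how many of them replicate DNA was not tested.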

How the results depend on the processing

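No paired analysis was possible because each genotype was deposited as 1 pooled matrix whose cell names carry no replicate number, and for the same reason no replicate could be left out. Of 150 alternative values, 111 stayed within the counting interval or within 1.5 times the count, 34 moved beyond it with the same sign and 5 of the list ratios changed sign. The cause was not tested. Leaving out cells of other types, quiet crypt cells as the comparison and stem markers without Cdca7 were added after seeing the data.

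Scoring after thinning each cell to 900 UMIs shared 174 of the 250 cells. It put the ROBO minus WT share at -3.55 points (-6.50 to -0.597, against -0.491 as reported, and 0.316 to 0.937 with 400 cells, no condition on the M score, no Mcm genes or the cells richest in Rn45s left out), replication genes over other cells at 1.03 and over M-high cells at 0.40, G2 and M genes over other cells at -0.073, mature enterocyte markers at -3.70 and the genotype ratio of replication genes at 0.0090. An S score without the Mcm genes shared 142 cells and gave 0.92 and 0.32 for replication genes over other and M-high cells, -0.56 for G2 and M genes, -2.19 for mature enterocyte markers and -0.18 between genotypes. With 400 cells these were 1.25 and 0.54, -0.079 and -4.20, and stem markers were at 0.83. With 150 cells replication genes over M-high cells were at 0.74 and stem markers at 0.62, and 50 genes passed 1.5-fold between genotypes. A minimum of 1500 UMIs per cell gave -0.013 for G2 and M genes, 0.81 for stem markers and -4.42 for mature enterocyte markers, and a minimum of 500 gave -4.27 for the last and 43 genes between genotypes. With no condition on the M score G2 and M genes were at 0.26. Each cell given the same weight gave 0.24 for them and 0.58 for replication genes over M-high cells. For replication genes over other cells, totals without Rn45s and ribosomal protein genes gave 1.35 and median-of-ratios scaling 1.22. Against quiet crypt cells, replication genes were at 1.38, G2 and M genes at 1.47, stem markers at 0.45 and mature enterocyte markers at -1.57, and 578 genes passed 1.5-fold. Over other cells 2218 genes passed 1.5-fold, against 1351 with a minimum of 200 UMIs per gene and 910 at 2-fold. Between genotypes 81 passed, against 358 with a minimum of 50 UMIs per gene, 23 with 200 and 8 at 2-fold. The sign of the replication gene ratio over other cells was positive in all 15 alternatives, and the stem marker ratio between genotypes lay between 0.07 and 0.21.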
